A study of Mus musculus with 6 samples.

Results

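Langerhans cells were taken from the CD45-positive skin libraries by their own unique molecular identifiers (UMIs, 1 per captured RNA molecule): 493 of 18971 kept barcodes, or 493 of 42767 over all 6 libraries of the study. A barcode was a member with at least 2 Cd207 UMIs, at least 1 Epcam UMI, no Xcr1 or Clec9a UMI and fewer than 5 UMIs of C1qa, C1qb and C1qc together. The alopecia library gave 259 members of 9206 kept barcodes, the no-alopecia library 83 of 3278 and the WT library 151 of 6487. Members with no Cd3d, Cd3e or Cd3g UMI, called Cd3-free here, numbered 110, 30 and 49 in the same order. The cells were thus chosen by their measured Cd207, Epcam, Xcr1, Clec9a and C1q UMIs, and these genes are given below as description only.

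The study set mice lacking an enhancer upstream of Il2ra (UP_Del), with and without hair loss, against C57BL/6 WT mice. All mice were adult females of 17 to 18 weeks with no treatment, and the genotype field reads C57/BL6 for every library. Whole skin was scraped free of hypodermis, minced, and digested with Liberase, DNase and trypsin, after which live CD45+ and CD45- cells were sorted and captured with a 10x Genomics 5' kit. There was 1 library for each group and sort: UP_Del_Alopecia, UP_Del_No_Alopecia and WT. How many mice went into a library is not given in the sources used here, so replicate error is unknown and no p-value is printed. All printed intervals are 95%, exact (Poisson for a level, binomial for a share or a ratio), and cover counting error only.

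Langerhans cells are the resident antigen-presenting cells of the epidermis, where E-cadherin contacts hold them among keratinocytes, and they carry the surface protein Epcam. Langerin, the product of Cd207, is their C-type lectin and builds Birbeck granules. On activation they loosen these contacts, gain the chemokine receptor Ccr7 and the actin-bundling protein Fscn1, and leave for the draining lymph node, where they present antigen to T cells. In mouse epidermis their closest neighbours, beside keratinocytes, are dendritic epidermal T cells, whose receptor uses the Tcrg-V5 and Trdv4 genes.

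The members were the deeper barcodes of their libraries. Median depth was 9183, 10158 and 10811 UMIs in alopecia, no-alopecia and WT members, against 4157, 4855.5 and 4573 over all kept barcodes. Member UMIs summed to 2809515, 1008803 and 1781621. Mitochondrial UMIs had a median of 2.05%, 1.76% and 2.08%. Pairs of libraries shared 48 (alopecia and no alopecia), 87 (alopecia and WT) and 34 (no alopecia and WT) barcode sequences, and 0 of the shared ones were members in both libraries.

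Genes that the rule did not use bore out the label. Levels are in CPM, the UMIs of a gene summed over a set of cells and scaled to an equal total for every set. Ltc4s, the leukotriene C4 synthase and a Langerhans-cell marker, stood at 667 (interval 637 to 698) CPM in alopecia, 357 (321 to 396) in no-alopecia and 437 (407 to 468) in WT members, against 21.8, 11.7 and 16.9 CPM in all other kept barcodes of the same libraries. H2-M5, a nonclassical class I gene, stood at 245 (227 to 264), 168 (143 to 195) and 280 (256 to 305) CPM in members, against 8.38, 7.09 and 9.98 CPM elsewhere. H2-M2, of the same gene family, stood at 718, 738 and 819 CPM in members and at 37.1, 40.3 and 37.5 CPM elsewhere. Mfge8, an opsonin that Langerhans cells make, stood at 1084, 820 and 1103 CPM in members and at 82.8, 60.5 and 66.5 CPM elsewhere. An Ltc4s UMI was present in 226 of 259, 71 of 83 and 125 of 151 members. Markers of fibroblasts were close to absent, with a list of 10 genes summing to 37.7, 7.93 and 13.5 CPM, while the type 2 dendritic-cell list was even, at 445, 454 and 436 CPM, against 661, 577 and 420 CPM elsewhere.

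**Figure D1:**
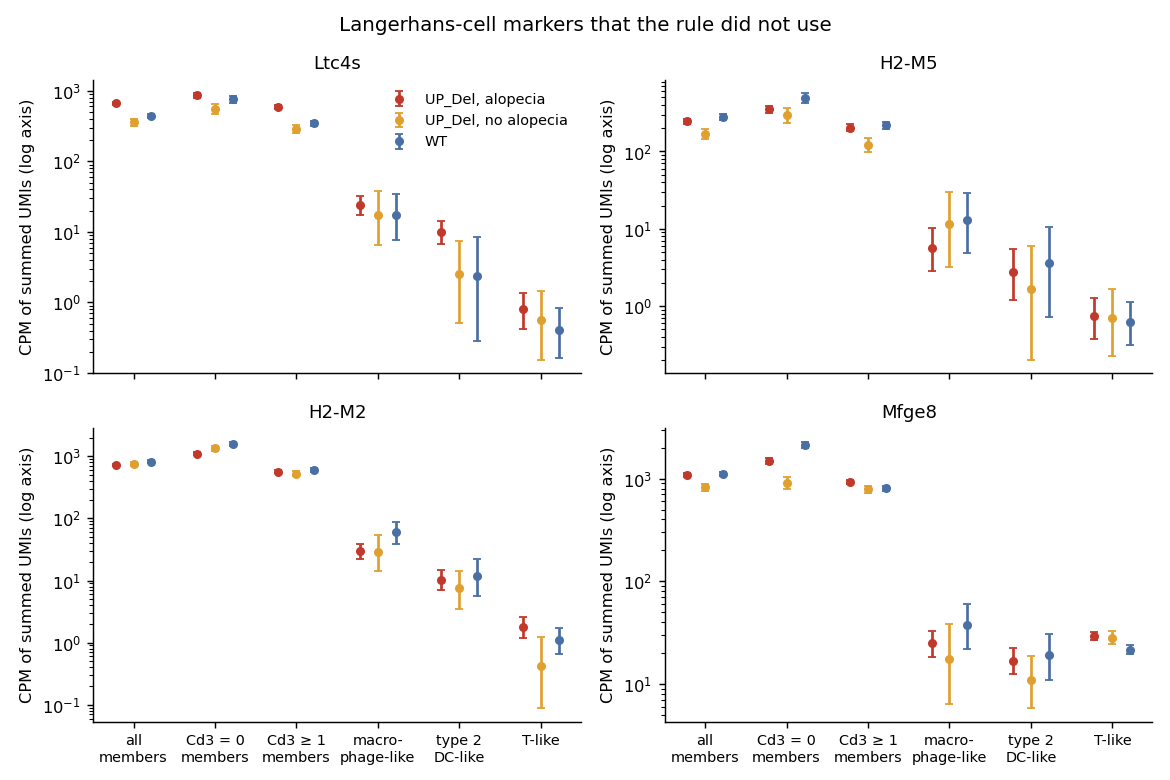
Levels of 4 Langerhans-cell markers that the rule did not use, in CPM of summed UMIs on log axes, for members, Cd3-free members (Cd3 = 0), members with a Cd3 UMI (Cd3 ≥ 1) and other barcode sets of the same 3 libraries; bars are exact 95% Poisson intervals. Ltc4s, at 667, 357 and 437 CPM in alopecia, no-alopecia and WT members, lay far above its level in macrophage-like, type 2 dendritic-like (DC-like) and T-like barcodes.

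The edge of the rule was not sharp. Barcodes with exactly 2 Cd207 UMIs, just inside, numbered 24, 7 and 13 and had 285, 180 and 188 CPM of Ltc4s in the alopecia, no-alopecia and WT libraries. Those with 1 Cd207 UMI, just outside, numbered 30, 15 and 14 and still had 154, 163 and 154 CPM. Barcodes with 1 Epcam UMI, just inside, numbered 35, 19 and 30 with 258, 135 and 180 CPM of Ltc4s. Those that met the other limits with no Epcam UMI, just outside, numbered 51, 43 and 46 with 110, 88.8 and 137 CPM. Both outer bands thus carried more Ltc4s than the remaining skin leukocytes, and the rule leaves some cells of this kind out. Within the rule the number of Cd207 UMIs was wide, with a median of 11, 15 and 11 and a maximum of 162, 236 and 189, while the median number of Epcam UMIs was 5, 4 and 4.

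Between alopecia, no-alopecia and WT skin the shares of Langerhans cells were close, and whether alopecia and WT differed beyond counting error depended on the setting. The share of kept barcodes was 2.81% (2.49 to 3.17) in alopecia, 2.53% (2.02 to 3.13) in no alopecia and 2.33% (1.97 to 2.72) in WT skin. The ratio of shares was 1.11 (0.865 to 1.44) for alopecia over no alopecia, 1.21 (0.985 to 1.49) for alopecia over WT and 1.09 (0.822 to 1.43) for no alopecia over WT, so each interval held 1. Of 13 other settings, 8 put the interval for alopecia over WT above 1, 1 did so for no alopecia over WT and 0 for alopecia over no alopecia. Kept barcodes with at least 2000 UMIs numbered 7815, 2814 and 5773, and thinned to that depth they gave a ratio for alopecia over WT of 1.70 (1.28 to 2.26). At 1000 UMIs, with shallower barcodes again left out, it was 1.51 (1.01 to 2.32). Cd3-free members were 1.19% (0.983 to 1.44), 0.915% (0.618 to 1.30) and 0.755% (0.559 to 0.997) of kept barcodes, and their ratio for alopecia over WT was 1.58 (1.12 to 2.26). The other ratios of Cd3-free members, 1.31 (0.865 to 2.03) for alopecia over no alopecia and 1.21 (0.743 to 1.95) for no alopecia over WT, had intervals that held 1. These are shares of a sort, so a change in any other leukocyte moves them, and the Cd3 limit itself acts on how much T-cell RNA a barcode holds.

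**Figure D2:**
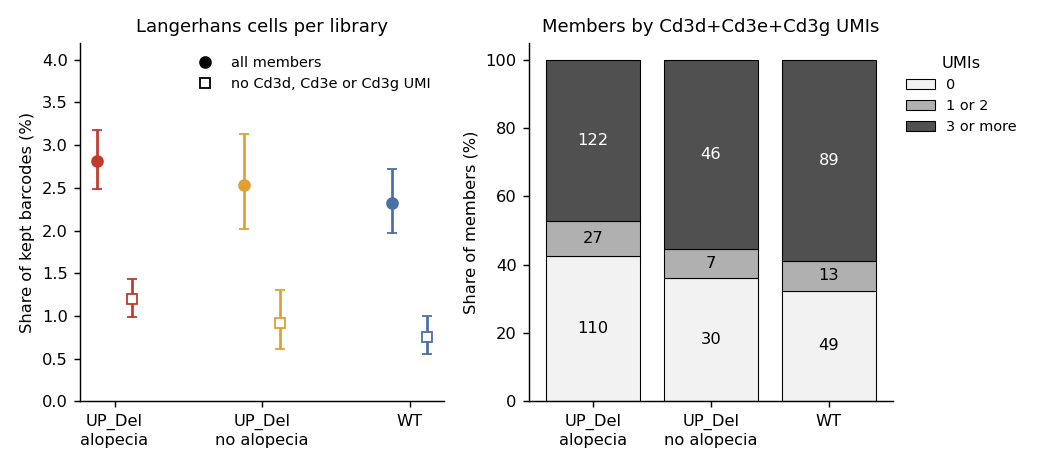
Left, share of kept barcodes that were Langerhans cells, in percent, for all members (filled) and Cd3-free members (open) of the alopecia, no-alopecia and WT libraries, with exact 95% binomial intervals; right, the members of each library split by the number of Cd3d, Cd3e and Cd3g UMIs, with the number of members printed in each part. The shares of all members, 2.81%, 2.53% and 2.33%, had overlapping intervals, and 122, 46 and 89 members held 3 or more Cd3 UMIs.

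Most members of each library held RNA of T cells. A Cd3 UMI was present in 149 of 259 alopecia, 53 of 83 no-alopecia and 102 of 151 WT members, and 3 or more were present in 122, 46 and 89. With each cell thinned to 1000 UMIs and shallower cells left out, a Cd3 UMI remained in 35.8%, 34.6% and 42.0% of members. Macrophage-like barcodes (5 or more C1qa, C1qb and C1qc UMIs) held one in 36.0%, 39.3% and 49.6% at the same depth, and type 2 dendritic-like barcodes in 36.3%, 39.2% and 41.5%. Mast-like barcodes (5 or more Cma1, Mcpt4 and Cpa3 UMIs) held one in 35.6%, 43.5% and 39.6%, but only 135 of 241, 69 of 112 and 106 of 157 were deep enough to enter. Fibroblast-like barcodes, which should lack these genes, held one in 3.08%, 1.42% and 2.13%. The members were thus near these other leukocytes of their library and well above the fibroblast-like level. Those with Cd3 UMIs were also deeper, with a median of 12291, 12192 and 12635.5 UMIs, against 6950, 6421 and 7114 in Cd3-free members.

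The T-cell RNA was of more than a single kind. Of the members with 3 or more Cd3 UMIs, 48 of 122 alopecia, 22 of 46 no-alopecia and 33 of 89 WT members had more UMIs of γδ than of αβ receptor constant genes, and 66, 18 and 52 had more of αβ. A UMI of Tcrg-V5 or Trdv4, the receptor genes of dendritic epidermal T cells, was present in 41.8% (32.9 to 51.1), 50% (34.9 to 65.1) and 53.9% (43.0 to 64.6) of them. In Cd3-free members such a UMI was found in 3 of 110, 1 of 30 and 1 of 49 cells. Whether attached cells, doublets or engulfed material brought this RNA was not tested. Values of Cd3-free members are therefore set beside many of the results below.

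Il2ra, the gene whose upstream enhancer the UP_Del mice lack, encodes the α chain of the interleukin-2 receptor, best known from regulatory and activated T cells. It was lower in members of both UP_Del libraries than in WT members. Its level was 82.9 (72.6 to 94.3) CPM in alopecia, 100.1 (81.5 to 122) in no-alopecia and 212 (191 to 235) in WT members. The log2 ratio was -1.36 (-1.60 to -1.12) for alopecia over WT, -1.08 (-1.41 to -0.76) for no alopecia over WT and -0.27 (-0.61 to 0.08) for alopecia over no alopecia. All other kept barcodes had 137, 153 and 243 CPM, so the same order was seen outside the Langerhans cells.

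Nearly all Il2ra UMIs of the members were in cells that also held Cd3. Members with a Cd3 UMI had 115 CPM in alopecia, 132 in no alopecia and 258 in WT skin. Cd3-free members held 4, 3 and 22 Il2ra UMIs, in 2 of 110, 2 of 30 and 4 of 49 cells, which is 4.93, 11.4 and 55.0 CPM. A single WT cell held 14 of the 22. Thinned to 1000 UMIs, an Il2ra UMI remained in 1 of 108, 0 of 29 and 2 of 48 Cd3-free members, and 0 of 29 allows a share of up to 10.3%, taken as 3 counts of the total. In fibroblast-like barcodes, at median depths of 3525, 3817 and 4545 UMIs, the thinned share was 0.769%, 0% and 3.19%. In mast-like barcodes, at 1155, 1249.5 and 1517 UMIs, it was 3.70%, 5.80% and 17.0%, over the 135, 69 and 106 that had at least 1000 UMIs. Both sets were taken here with any number of Cd3 UMIs, unlike the Cd3-free members. The Cd3-free shares, 0.926% (0.0234 to 5.05), 0% and 4.17% (0.509 to 14.3), were close to the fibroblast-like ones, but rest on few cells. Without thinning, fibroblast-like barcodes with fewer than 3 Cd3 UMIs had 3.89, 0 and 10.7 CPM, each below the Cd3-free members. Whether Langerhans cells themselves hold Il2ra could thus not be told.

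**Figure D3:**
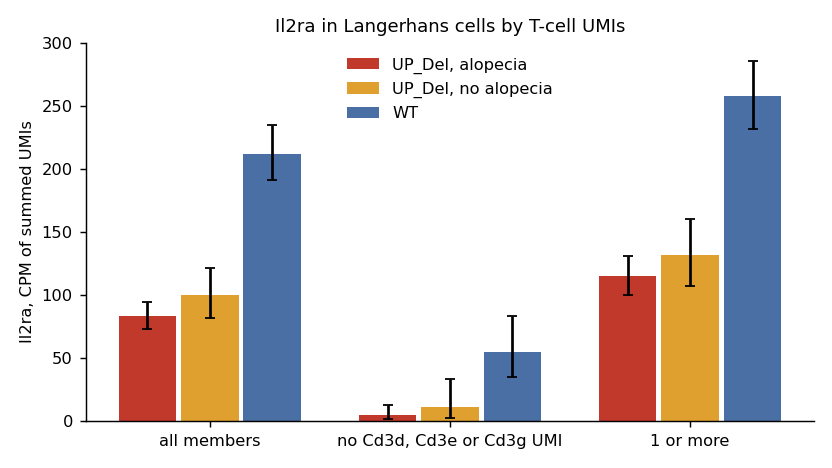
Il2ra in CPM of summed UMIs for all members, Cd3-free members and members with 1 or more Cd3 UMIs, in the alopecia, no-alopecia and WT libraries, with exact 95% Poisson intervals. Of all members, those of WT skin had 212 CPM against 82.9 in alopecia and 100.1 in no alopecia, while the Cd3-free bars rest on 4, 3 and 22 UMIs.

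Across all genes, a gene counted as measured in a comparison at a summed count of at least 50 over both libraries and at least 50 CPM in the higher one, and as higher or lower at 1.5-fold or more. For alopecia over no alopecia, 210 of 3526 measured genes (5.96%) were higher and 306 (8.68%) lower. For alopecia over WT, 114 of 3444 (3.31%) were higher and 218 (6.33%) lower, and for no alopecia over WT, 190 of 3525 (5.39%) were higher and 177 (5.02%) lower. The median log2 ratio of all measured genes was -0.034, -0.013 and -0.0054 in that order of comparisons. In Cd3-free members, which are fewer and shallower, the shares were 16.3% higher and 15.4% lower (3193 genes, alopecia over no alopecia), 9.6% and 10.4% (3302 genes, alopecia over WT) and 12.5% and 11.7% (2016 genes, no alopecia over WT). Counts for a gene list below are to be read against these shares. The 2 UP_Del comparisons share the WT library, and both alopecia comparisons share the alopecia library.

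Several receptors and mediators of the common γ-chain cytokines, the family of interleukins 2, 4, 7, 15 and 21, were lower in alopecia members. Of 14 measured genes of this list, 8 were lower and 0 higher for alopecia over WT (median log2 -0.68), 6 lower and 0 higher for alopecia over no alopecia (-0.48), and 1 lower and 1 higher for no alopecia over WT (-0.19). Il21r, the interleukin-21 receptor, had 52.0 (43.9 to 61.1) CPM in alopecia, 115 (95 to 138) in no-alopecia and 111 (96.2 to 128) in WT members. Il4ra, the α chain of the interleukin-4 receptor, had 82.9, 156 and 132 CPM, and the transcription factor gene Stat5a had 49.5, 81.3 and 86.4 CPM. For all 3 genes the alopecia interval lay below the others. The other kept barcodes had the same low alopecia level, with 87.5, 155 and 187 CPM of Il21r, 121, 157 and 168 CPM of Il4ra and 56.1, 74.0 and 77.8 CPM of Stat5a. The β and γ chains ran in the order of Il2ra, with 229, 297 and 372 CPM of Il2rb and 184, 234 and 269 CPM of Il2rg. T cells express these genes too. The T-cell list of 16 genes summed to 2563, 2981 and 3167 CPM, and the list of 7 CD4 and regulatory T-cell genes to 947, 1059 and 1497 CPM. The list of 10 genes of dendritic epidermal T cells summed to 1426, 1058 and 1414 CPM. Over WT, the CD4 and regulatory list had a median log2 of -0.66 in alopecia and -0.68 in no alopecia, where the γ-chain list had -0.68 and -0.19. In Cd3-free members the T-cell list, its Cd3 genes absent by the limit, was at 236, 182 and 195 CPM. The dendritic epidermal T-cell list was uneven there, at 545, 45.5 and 55.0 CPM. Of its 443 alopecia UMIs, 271 were of Gzmc, 206 of them in 1 cell. The CD4 and regulatory list was at 204, 102 and 185 CPM. In the same members 4 of 11 measured γ-chain genes were lower for alopecia over WT (median -0.33). Among them were Il4ra with 25.9, 49.3 and 85.1 CPM and Stat5a with 29.6, 56.9 and 105 CPM. For alopecia over no alopecia, Cd3-free members had 2 of 6 γ-chain genes higher and 2 lower (median -0.28), and Il2rb and Il2rg turned round there, with log2 ratios of 0.78 and 0.70, on 37 and 35 UMIs in alopecia and 7 each in no alopecia, too few to count as measured. The part of T-cell RNA in the γ-chain counts was not tested further.

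A small set of members held Ccr7, the receptor of migrating Langerhans cells. At least 3 Ccr7 UMIs were found in 20 alopecia members (7.72%, 4.78 to 11.7), 7 no-alopecia members (8.43%, 3.46 to 16.6) and 26 WT members (17.2%, 11.6 to 24.2). Near that limit, with 2 or 3 UMIs, lay 8, 6 and 9 members, and 226, 66 and 107 members had no Ccr7 UMI at all. Almost the whole Fscn1 signal lay in these cells: 255 of 258 UMIs in alopecia, 27 of 30 in no alopecia and 327 of 333 in WT members. In Cd3-free members with 3 or more Ccr7 UMIs, 9, 1 and 7 cells, Fscn1 reached 2697 CPM in alopecia and 2534 CPM in WT skin, and the single no-alopecia cell held none. Those alopecia and WT cells also had 1068 and 1188 CPM of Ccl22, a chemokine of mature dendritic cells that draws Ccr4-bearing T cells, against 8.36 and 30.2 CPM in the remaining Cd3-free members. Their Cd207 was lower, at 486 and 1257 CPM, against 2252 and 3414 CPM in the rest of the Cd3-free members. Ltc4s was lower too, at 116 and 324 against 962 and 903 CPM, as was H2-M5, at 0 and 58.9 against 396 and 645 CPM. Mfge8 was not lower in both, at 1364 and 2907 against 1499 and 1870 CPM. Whether these cells were Langerhans cells or other migratory dendritic cells was not tested.

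Many of the Ccr7-bearing cells, and most of those in WT skin, had no Fscn1 UMI. Of the Ccr7-bearing members, 9 in alopecia, 2 in no alopecia and 7 in WT skin also held an Fscn1 UMI, or 3.47% (1.60 to 6.49), 2.41% (0.293 to 8.43) and 4.64% (1.88 to 9.32) of members, with intervals that overlap. The other 11, 5 and 19 held none. Of these, all 11 in alopecia, 4 in no alopecia and 16 in WT skin had a Cd3 UMI, and naive and memory T cells also express Ccr7. This split was chosen after the values were seen.

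Part of the migration and maturation genes were lower than in WT members. Of 13 measured genes of that list, 7 were lower and 0 higher for alopecia over WT (median log2 -0.65), 4 lower and 1 higher for no alopecia over WT (-0.31), and 2 lower and 2 higher for alopecia over no alopecia (-0.23). Ccr7 itself had 129 (116 to 143) CPM in alopecia, 101 (82.4 to 123) in no-alopecia and 309 (283 to 336) in WT members. Fscn1 had 91.8 (81.0 to 104), 29.7 (20.1 to 42.5) and 187 (167 to 208) CPM. The WT values were the highest for both, but each rests on few cells: 1 cell gave 29% of the WT Ccr7 UMIs and 28% of the WT Fscn1 UMIs, and 1 cell gave 67% of the no-alopecia Fscn1 UMIs. With the Ccr7-bearing members left out, an alternative chosen after seeing the data, the list medians were -0.40 for alopecia over WT and -0.036 for no alopecia over WT. In Cd3-free members 9 of 14 genes were lower for alopecia over WT (-0.81) and 7 of 11 for no alopecia over WT (-1.80). For alopecia over no alopecia 8 of 13 were higher and 4 lower there (1.60), a sign opposite to that of all members, on 9 and 1 Ccr7-bearing cells. Other genes of the list were spread over most members and differed less, as Cd83, a marker of dendritic-cell maturation, with 818, 923 and 1086 CPM. Nfkb2, of the noncanonical NF-κB pathway, had 76.5 (66.6 to 87.5) CPM in alopecia, 140 (118 to 165) in no-alopecia and 129 (112 to 146) in WT members.

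Most measured chemokine genes were lower than in WT members. Of 9 measured members, 7 were lower and 0 higher for alopecia over WT (median log2 -1.09) and 5 lower and 0 higher for no alopecia over WT (-1.37). For alopecia over no alopecia, 2 of 8 were higher and 1 lower (0.23). Ccl5, a chemoattractant of T cells and monocytes, had 85.8 (75.3 to 97.3) CPM in alopecia, 48.6 (35.9 to 64.2) in no-alopecia and 334 (308 to 362) in WT members. Ccl22 had 59.1 (50.4 to 68.8), 48.6 (35.9 to 64.2) and 126 (110 to 143) CPM. Cxcl10, an interferon-induced ligand of Cxcr3, had 15.7 (11.4 to 21.0), 12.9 (6.86 to 22) and 79.1 (66.6 to 93.3) CPM. For these 3 genes the WT interval lay above both others, though Cd3-free members held only 3, 0 and 6 Cxcl10 UMIs. The list of 11 markers of migratory dendritic cells, to which Ccl5 and Ccl22 belong, summed to 546, 385 and 1264 CPM. Ccl5 and Cxcl10 were also present in the other kept barcodes, at 373, 288 and 519 CPM and at 38.4, 71.4 and 103 CPM, and what part such RNA had in the members was not tested. In Cd3-free members, 70 of 77 alopecia and 253 of 268 WT Ccl5 UMIs lay in the Ccr7-bearing cells, and the no-alopecia library had 0 Ccl5 UMIs there. A single cell gave 52 of the alopecia and 200 of the WT UMIs. Cxcl16, the membrane-bound ligand of Cxcr6, had 239 (221 to 258), 381 (344 to 421) and 365 (338 to 395) CPM in members. All other kept barcodes together had less, with 57.0, 70.1 and 49.1 CPM. Among members, Cxcl16 was lower in alopecia than in both other groups. Its Cd3-free levels were 382 CPM in alopecia, 611 in no alopecia and 630 in WT skin.

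**Figure D4:**
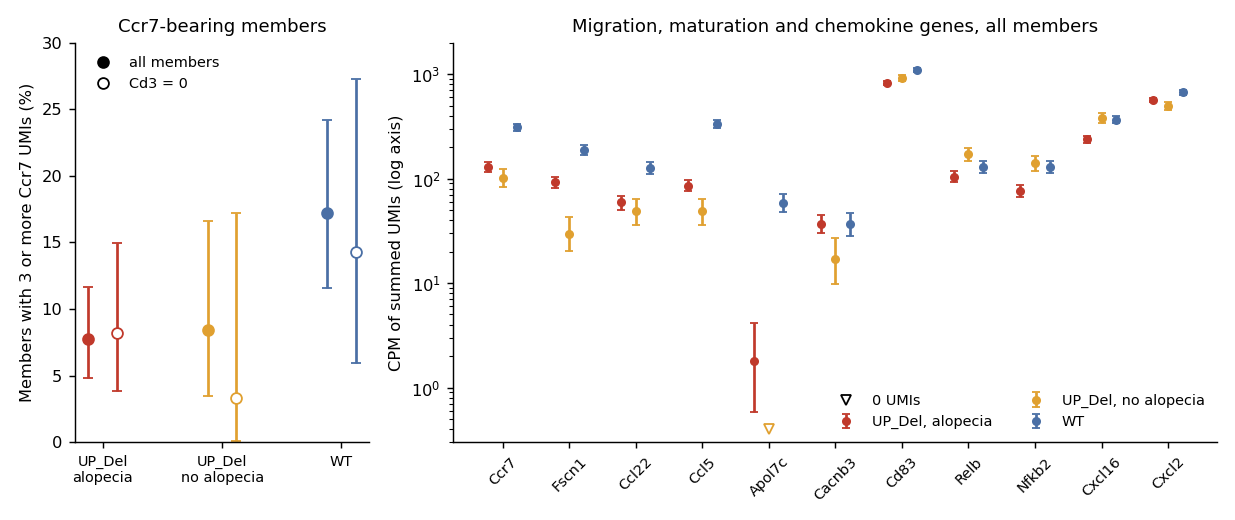
Left, share of members with 3 or more Ccr7 UMIs, in percent, for all members (filled) and Cd3-free members (open), with exact 95% binomial intervals; right, levels of migration, maturation and chemokine genes in all members, in CPM of summed UMIs on a log axis with exact 95% Poisson intervals, open triangles marking 0 UMIs. Ccr7, Fscn1, Ccl22 and Ccl5 were highest in WT members, with 309, 187, 126 and 334 CPM, while Cxcl16 was lowest in alopecia members, with 239 CPM.

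Eicosanoid metabolism turns arachidonic acid into leukotrienes and prostaglandins, and 4 of its genes, Ltc4s among them, were higher in alopecia than in no-alopecia members. Of 8 measured genes of the list, 4 were higher and 0 lower for alopecia over no alopecia, with a median log2 ratio of 0.69. For alopecia over WT, 3 of 9 were higher and 2 lower (0.42), and for no alopecia over WT, 0 of 8 were higher and 2 lower (-0.31). Beside Ltc4s, the genes past 1.5-fold for alopecia over no alopecia were Alox5, Ptgs1 and Hpgd. Alox5, the 5-lipoxygenase that starts leukotriene synthesis, had 272 (253 to 292) CPM in alopecia, 146 (123 to 171) in no-alopecia and 204 (183 to 226) in WT members. Ptgs1, the constitutive cyclooxygenase, had 365 (343 to 388), 202 (175 to 232) and 254 (231 to 279) CPM. Hpgd, which inactivates prostaglandins, had 105 (93.4 to 118), 43.6 (31.7 to 58.6) and 46.0 (36.6 to 57.1) CPM. In these 3 genes the alopecia interval lay above both others, and all other kept barcodes of a library together held 25.2 CPM or less. Some kinds of barcode among them held more Hpgd. Macrophage-like ones had 102, 152 and 39.5 CPM and fibroblast-like ones 101, 60.7 and 64.3 CPM.

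The same order was seen in Cd3-free members, though with smaller differences from WT. There Ltc4s had 863, 557 and 756 CPM, Alox5 385, 247 and 278 CPM, Ptgs1 478, 311 and 408 CPM and Hpgd 172, 87.2 and 87.6 CPM. Of 8 measured genes, 4 were higher for alopecia over no alopecia (median log2 0.49) and 1 for alopecia over WT (0.26). Ptgs2, the inducible cyclooxygenase, went the other way, with 20.3, 27.8 and 85.9 CPM in alopecia, no-alopecia and WT members, but 1 cell gave 46% of its WT UMIs and Cd3-free members had 28.3, 41.7 and 35.0 CPM. Alox5ap, the partner protein of Alox5, stood at 709, 490 and 464 CPM.

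Antigen-presentation genes were mostly within 1.5-fold. Of the class II list, 1 gene of 12 was higher and 1 lower for alopecia over no alopecia (median log2 0.26), 1 of 10 higher and 0 lower for alopecia over WT (0.24) and 1 of 12 higher and 0 lower for no alopecia over WT (-0.02). The invariant chain gene Cd74 had 23878, 19808 and 21380.0 CPM, and H2-Aa, a class II chain, had 8425, 7576 and 7090.2 CPM. The gene past the fold in both alopecia comparisons was H2-DMa, whose product loads peptides onto class II, with 962 (926 to 999), 617 (569 to 667) and 578 (543 to 615) CPM. In Cd3-free members it had 1329, 997 and 906 CPM, which is under 1.5-fold. Of the lysosome and antigen-processing list, 3 of 16 genes were higher and 1 lower for alopecia over no alopecia (0.26), 1 higher and 0 lower for alopecia over WT (0.16), and 1 higher and 1 lower for no alopecia over WT (-0.03). Among them were Cst3, the cathepsin inhibitor cystatin C, with 7288, 4442 and 5363 CPM, and Ctsh, cathepsin H, with 271, 155 and 178 CPM. The class I list had 2 of 14 genes higher and 1 lower for alopecia over no alopecia (0.03), 0 of 13 higher and 1 lower for alopecia over WT (-0.17), and 0 of 14 higher and 2 lower for no alopecia over WT (-0.21).

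Genes of Langerhans-cell identity, rule genes left out, were mostly within 1.5-fold. For alopecia over no alopecia 2 of 11 were higher and 0 lower (median log2 0.27), for alopecia over WT 2 and 0 (0.11), and for no alopecia over WT 1 and 1 (-0.15). Csf1r, the receptor for interleukin-34 on which Langerhans cells depend, had 352, 249 and 278 CPM. Of the list of Csf1r signalling and lineage factors, 2 of 15 were lower for alopecia over no alopecia, 0 for alopecia over WT and 1 for no alopecia over WT, with none higher, and the medians were -0.21, -0.18 and 0.16. Csf2rb, the shared β chain of the GM-CSF receptor, was among the 2, with 166 (151 to 182), 325 (291 to 362) and 240 (217 to 264) CPM. Of the list of the TGF-β pathway, which keeps Langerhans cells in place, 2 of 12 were lower for alopecia over no alopecia (-0.24), 1 was lower for alopecia over WT (-0.34) and 1 was higher and 1 lower for no alopecia over WT (-0.09).

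Of 10 measured targets and receptors of interferon-γ, 6 were lower and 0 higher for alopecia over WT (median log2 -0.70), 4 lower and 0 higher for no alopecia over WT (-0.38), and of 9, 2 lower and 1 higher for alopecia over no alopecia (-0.19). Cd274, which encodes the checkpoint ligand PD-L1, had 29.9 (23.8 to 37.0) CPM in alopecia, 50.6 (37.6 to 66.5) in no-alopecia and 60.1 (49.2 to 72.6) in WT members, and Ifngr2, a receptor chain, had 52.0, 60.5 and 95.4 CPM in the same groups. The other kept barcodes held more Cd274 in the same order, with 70.3, 86.0 and 99.0 CPM. Of the 84, 51 and 107 Cd274 UMIs of the members, 12, 3 and 8 were in Cd3-free ones. In Cd3-free members 1 of 7 was lower for alopecia over WT (-0.25). For no alopecia over WT the Cd3-free median was 0.28 over 4 genes, so its sign turned. What part T-cell RNA had in the interferon-γ counts was not tested. The class II transactivator Ciita, also an interferon-γ target, had 85.1, 87.2 and 66.2 CPM.

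Of the co-stimulation and checkpoint list, 1 of 8 genes was higher and 1 lower for alopecia over no alopecia (median log2 -0.21), 1 of 9 higher and 3 lower for alopecia over WT (-0.25), and 0 of 9 higher and 2 lower for no alopecia over WT (0.05). Sirpa, the inhibitory receptor for Cd47, was the higher one in both alopecia comparisons, with 148 (134 to 163) CPM in alopecia, 87.2 (70.0 to 107) in no-alopecia and 83.1 (70.2 to 97.6) in WT members. Cd86, a ligand of Cd28, stood at 606, 625 and 515 CPM. Cd40, through which helper T cells license dendritic cells, had 31.3, 34.7 and 55.6 CPM.

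**Figure D5:**
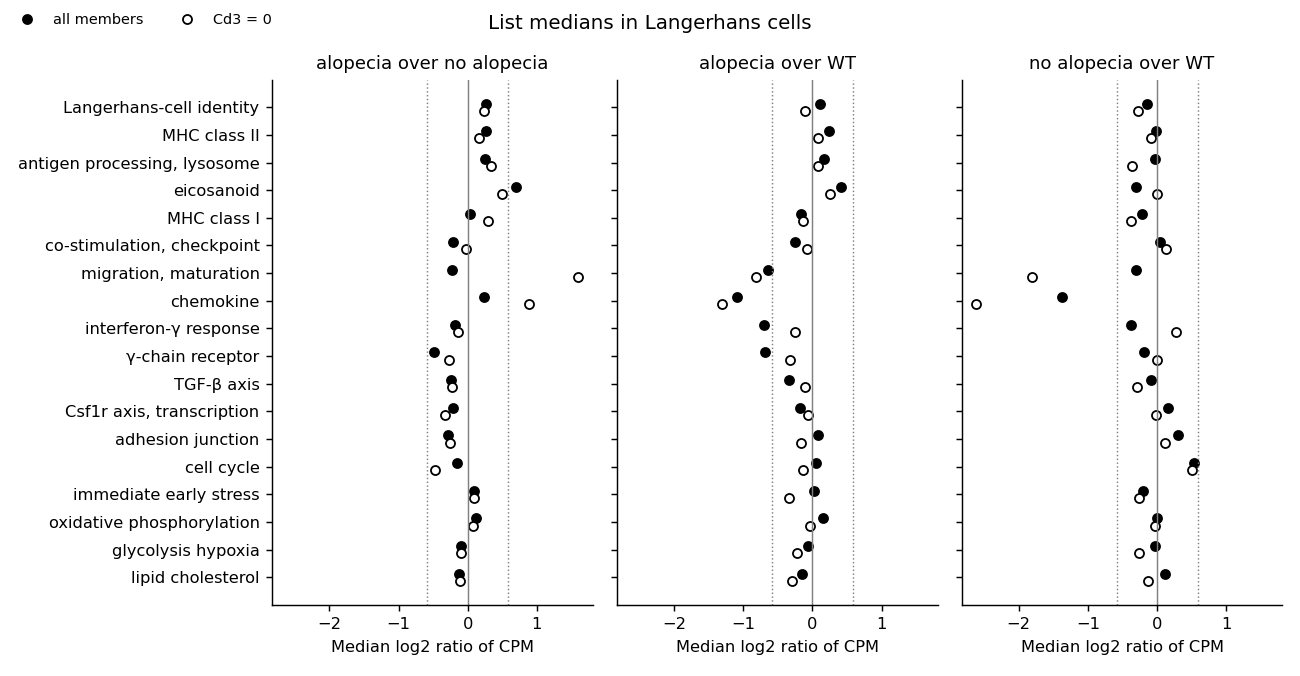
Median log2 ratio of CPM over the measured genes of 18 lists in the 3 comparisons, for all members (filled) and Cd3-free members (open); the solid line is at 0 and the dotted lines are at 1.5-fold. The medians of all members lay beyond 1.5-fold for chemokine genes over WT (-1.09 and -1.37), for migration, γ-chain and interferon-γ genes for alopecia over WT (-0.65, -0.68 and -0.70) and for eicosanoid genes for alopecia over no alopecia (0.69).

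Single genes were named by rank of the interval bound nearer to 1, with 1.5-fold the same way required in Cd3-free members. A gene did not have to count as measured in those. Frmd5, Nod2, Scin, Hmox1, Apobec3, Cxcl10, Itsn1, Fah, Il2ra and Ccl4 were too low to do so. For alopecia over no alopecia, 133 genes passed the rule as higher and 182 as lower. The leading higher genes were Sult1a1, Col16a1, Clec4n, Plpp1, Mmp9, Frmd5, Fkbp5 and Ptpn6. Frmd5 held only 18, 1 and 0 UMIs in Cd3-free members, too few to count as measured there. It had 94.0, 30.7 and 81.9 CPM in all members and 116, 64.3 and 59.5 CPM in T-like barcodes. Sult1a1, a phenol sulfotransferase, had 284 (265 to 304) CPM in alopecia, 79.3 (62.9 to 98.7) in no-alopecia and 177 (158 to 197) in WT members. Col16a1, a collagen gene, had 211 (194 to 228), 56.5 (42.8 to 73.2) and 109 (94.1 to 125) CPM, and Mmp9, a gelatinase that cleaves basement-membrane collagen, had 153 (139 to 169), 54.5 (41.1 to 71.0) and 97.1 (83.2 to 113) CPM. WT members lay between both UP_Del groups for each of the 3. All other kept barcodes together had 17.1, 29.1 and 14.2 CPM of Col16a1 and 9.85, 8.77 and 8.44 CPM of Mmp9. Some kinds of barcode among them were higher, as fibroblast-like ones with 356, 381 and 356 CPM of Col16a1 and macrophage-like ones with 41.6, 55.6 and 43.9 CPM of Mmp9. Clec4n, the gene of the fungal receptor Dectin-2, had 68.7, 17.8 and 41.0 CPM, and Ptpn6, the phosphatase SHP-1, had 252, 101 and 181 CPM.

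Among the leading genes lower in alopecia than in no-alopecia members were Nod2, Hist1h1e, Scin, Hist1h1d, Hmox1, Il1rapl1 and Hist1h2ap. Nod2, an intracellular sensor of bacterial muramyl dipeptide, had 11.4 (7.79 to 16.1) CPM in alopecia, 66.4 (51.5 to 84.3) in no-alopecia and 22.5 (16.0 to 30.6) in WT members. The 3 histone genes came mostly from few cells of the no-alopecia library, a single cell giving 31% of Hist1h1e, 56% of Hist1h1d and 66% of Hist1h2ap UMIs there. For Scin, 1 cell gave 44% of the no-alopecia UMIs. Il1rapl1 had 90.1, 250 and 187 CPM in members and ran in the same order in the other kept barcodes, with 85.7, 201 and 147 CPM. Hmox1 had 22.1, 73.4 and 39.9 CPM in members, less than the 89.5, 108 and 66.1 CPM of the other kept barcodes.

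For alopecia over WT, 49 genes passed as higher and 103 as lower. Krt14, Krt5, Col17a1, Tppp3, Emilin2, Hpgd, Apoe and Tsc22d3 led the higher ones. Tsc22d3, the glucocorticoid-induced leucine zipper, had 1120 (1082 to 1160) CPM in alopecia, 548 (503 to 596) in no-alopecia and 596 (560 to 632) in WT members, and 1480, 569 and 635 CPM in Cd3-free members. Fkbp5, another gene that glucocorticoids induce, had 193 (177 to 209), 74.3 (58.5 to 93.2) and 138 (121 to 156) CPM. Both were also highest in the alopecia library among the other kept barcodes, with 480, 350 and 329 CPM of Tsc22d3 and 139, 54.4 and 110 CPM of Fkbp5. Apoe, a lipid carrier, had 1010 (974 to 1048), 720 (668 to 774) and 535 (501 to 570) CPM, with 1 cell giving 12%, 22% and 20% of the UMIs. The list of 14 macrophage markers, to which Apoe belongs, summed to 1721, 1488 and 1055 CPM, most of it Apoe itself and the C1q genes of the rule, with Ms4a7 at 0 in alopecia and Folr2 and Fcgr1 at 0 in WT members. Its other 10 genes summed to 601, 660 and 418 CPM in all members, which is not the order of Apoe. In Cd3-free members they summed to 539, 482 and 305 CPM, the order of Apoe there, with 1482.5, 1225 and 883 CPM. What part macrophage RNA had in the Apoe levels was not tested.

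The genes that led the lower side for alopecia over WT were Ly6e, Apobec3, Cxcl10, Pde1c, Ccl5, Itsn1, Fah and Il2ra. Itsn1 held only 4, 2 and 6 UMIs in Cd3-free members. Ly6e, a GPI-anchored protein that restricts viral entry, had 83.3 (73.0 to 94.7) CPM in alopecia, 63.4 (48.9 to 81.0) in no-alopecia and 827 (786 to 871) in WT members, log2 ratios of -3.31 and -3.70 over WT. Apobec3, a cytidine deaminase that restricts retroviruses, had 6.76 (4.07 to 10.6), 15.9 (9.07 to 25.8) and 57.8 (47.2 to 70.1) CPM. Pde1c, a cyclic-nucleotide phosphodiesterase, had 38.8, 93.2 and 163 CPM. The other kept barcodes repeated these steps, with 134, 130 and 1232 CPM of Ly6e, 9.81, 9.93 and 74.6 CPM of Apobec3 and 63.2, 90.1 and 168 CPM of Pde1c. Cd3-free members had 6.16, 45.5 and 408 CPM of Ly6e and 7.39, 15.2 and 47.5 CPM of Apobec3, on 5, 12 and 163 and on 6, 4 and 19 UMIs. Macrophage-like barcodes had 127, 52.7 and 1289 CPM of Ly6e, but fibroblast-like ones had 420, 433 and 302 CPM, so the WT level was not the highest in every kind of cell. With 1 library a group, genotype, mouse and library cannot be told apart.

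For no alopecia over WT, 116 genes passed as higher and 103 as lower. Krt10, Krt14, Krt5, Anxa8, Emilin2, Col17a1, Hist1h1d and Dsp led the higher ones, and Ly6e, Ccl5, Ccl4, Gyg, Ccr7, Apobec3, Defb6 and Id3 the lower ones. Emilin2, an extracellular glycoprotein, had 53.4 (45.2 to 62.7) CPM in alopecia, 123 (102 to 147) in no-alopecia and 19.6 (13.7 to 27.3) in WT members, and 64.8, 72.1 and 28.7 CPM in the other barcodes. Ccl4, a chemokine gene, had 61.9, 27.8 and 133 CPM, and 54.2, 3.79 and 47.5 CPM in Cd3-free members, where the no-alopecia value is a single UMI. Defb6, an epithelial β-defensin, had 222, 193 and 457 CPM with 41% of the WT UMIs from 1 cell.

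Keratinocyte genes were higher in both comparisons of all members with WT. Of the keratinocyte list, 11 of 14 measured genes were higher and 1 lower for alopecia over WT (median log2 1.46), and 11 of 13 higher and 2 lower for no alopecia over WT (1.60). Summed over the list, alopecia members had 3342 CPM, no-alopecia members 4094 CPM and WT members 1395 CPM, while the other kept barcodes had 4039, 3780 and 3504 CPM. Most of this RNA was in few cells. At least 10 UMIs of Krt5, Krt14, Krt1 and Krt10 were found in 25, 8 and 10 members, or 9.65% (6.34 to 13.9), 9.64% (4.25 to 18.1) and 6.62% (3.22 to 11.8), and 191, 64 and 122 members held none. A single cell gave 84% of the alopecia and 95% of the no-alopecia Krt10 UMIs. Those cells were deep, with a median of 15742, 27442 and 13084.5 UMIs, and Cd3-free members summed to 2202, 9818 and 3165 CPM, with a median of -0.63 for alopecia over WT. The direction for alopecia over WT thus differed between all members and the Cd3-free ones. Of the adhesion list, 3 of 14 genes were higher and 1 lower for alopecia over WT (0.08) and 4 of 15 higher and 0 lower for no alopecia over WT (0.31). Desmoplakin (Dsp) and plakoglobin (Jup) of the adhesion list, which keratinocytes also express, had 150, 214 and 61.7 CPM and 83.3, 117 and 47.1 CPM. E-cadherin (Cdh1) and claudin-1 (Cldn1), which Langerhans cells use, had 169, 179 and 176 CPM and 336, 386 and 312 CPM.

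Few members were in cycle. At least 5 UMIs over 9 cell-cycle genes were found in 11 alopecia members (4.25%, 2.14 to 7.47), 6 no-alopecia members (7.23%, 2.70 to 15.1) and 5 WT members (3.31%, 1.08 to 7.56), with intervals that overlap, and 9, 4 and 4 of them held a Cd3 UMI. Mki67, a marker of proliferating cells, had 44.8, 53.5 and 25.3 CPM, against 53.9, 58.9 and 67.6 CPM in the other kept barcodes. Of the cell-cycle list, 4 of 9 genes were higher for no alopecia over WT (median log2 0.53), 2 of 9 lower for alopecia over no alopecia (-0.16) and 0 of 7 past the fold for alopecia over WT (0.04).

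Oxidative phosphorylation stayed within the fold, with 0 of 21 genes past 1.5-fold in all 3 comparisons and medians of 0.12, 0.16 and -0.0095 for alopecia over no alopecia, alopecia over WT and no alopecia over WT. Of 14 glycolysis and hypoxia genes, 2, 2 and 0 were lower and 0, 0 and 1 higher (-0.10, -0.063 and -0.037). The lipid list had 1, 1 and 1 lower and 0, 1 and 0 higher of 13, 12 and 13 (-0.12, -0.15 and 0.12). Immediate-early and stress genes, which tissue digestion can induce, had 3, 0 and 0 of 23 higher and 2, 2 and 3 lower (0.097, 0.020 and -0.21). Egr1, one of these, had 173, 379 and 264 CPM. Only 3 of 22 type I interferon genes could be measured, of which 1, 0 and 0 were lower and 0 higher (-0.35, 0.060 and 0.32). Of the pattern-recognition genes, 1, 1 and 2 were higher and 2, 0 and 0 lower of 8, 7 and 7 (-0.39, 0.23 and 0.053). Among cytokines, 0, 1 and 0 were higher and 2, 2 and 1 lower of 7, 8 and 8 (-0.19, -0.29 and -0.021). Il1b, the gene of interleukin-1β, which prompts Langerhans cells to migrate, had 220, 381 and 352 CPM in alopecia, no-alopecia and WT members and 227, 377 and 206 CPM in the other barcodes.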

How the data were processed

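Each deposited matrix holds unnormalized UMI counts, checked to be whole numbers, for 32285 genes. The authors ran Cell Ranger 7.1.0 with build mm10, per the submitters' processing notes, and the barcodes are those in the filtered matrices per the file headers. Groups come from the sample titles. Kept barcodes had at least 500 UMIs, 300 genes and at most 10% mitochondrial UMIs. Members and lists were chosen with earlier results of these data known.

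UMIs were summed over members per library and scaled to CPM. For ratios, a sum of 0 took the floor of 3 counts. With 1 library a group there is no test and no replicate to leave out. Named genes, up to 8 each way, were measured and past 1.5-fold in all members. They had a UMI in at least 10% of the members of the higher library and at least 0.5 times the CPM of its other barcodes. Each was also past 1.5-fold the same way in Cd3-free members, whether or not measured there. Named genes exclude genes of the rule, sex-linked and unnamed genes, antigen-receptor and hemoglobin genes, and mitochondrial and ribosomal-protein genes, with ranks from the ratio bound closest to 1. A limit that the higher Cd3-free sum lie above the floor was added after values were seen, and put Dsp in the place of another gene. A gene that the rule named is not reported here. Doublets were not removed in the main results. Scripts were tested on simulated data. A search of promoters for motifs was also made and is not reported.

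Alternatives were the cell filter, doublet removal by simulated-doublet score, each UMI limit of the rule, the Cd3 and keratin limits, thinning, scaling (trimmed mean, or without mitochondrial and ribosomal genes), the mean over cells and the minimum count. Leaving out Ccr7-bearing members, and the top barcode of each gene, were chosen after seeing the data. Used were Python 3.11.15, numpy 2.4.6, scipy 1.17.1, pandas 2.3.3, scanpy 1.11.5 and matplotlib 3.10.9.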

Additional observations from a re-analysis of the deposited data

Results flagged for a closer look

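The CD45-negative libraries, which enter no comparison here, each held 1 barcode that passed the same rule: 1 of 4958 kept barcodes in alopecia (0.0202%, 0.00051 to 0.112), 1 of 15484 in no alopecia (0.00646%, 0.00016 to 0.036) and 1 of 3354 in WT skin (0.0298%, 0.00075 to 0.166). What drew attention to them is that the sort should hold no leukocytes. These 3 barcodes had 27907, 32618 and 43466 UMIs, against medians of 5730, 5719 and 5012.5 UMIs in their libraries. They held 7, 19 and 9 Cd207 UMIs beside 36, 128 and 88 UMIs of Krt5 and Krt14, and 1, 0 and 0 UMIs of Ptprc, the CD45 gene. Ltc4s had 0, 1 and 4 UMIs in them. Whether they are Langerhans cells joined to keratinocytes was not tested.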

How the results depend on the processing

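No paired analysis was possible because each group has 1 library. Of 1212 recomputed list medians, 1015 stayed within their counting interval, as did 800 of 959 named-gene ratios, 40 of 45 Il2ra ratios and 35 of 39 ratios of shares. For list medians this interval was a normal approximation from the counts, not an exact one. Cd3-free members gave more genes past 1.5-fold, 522 higher and 493 lower for alopecia over no alopecia and 317 and 342 for alopecia over WT. They moved the ratio of shares for alopecia over WT to log2 0.66, and thinning to 1000 or 2000 UMIs moved it to 0.60 (0.0076 to 1.21) and 0.76 (0.36 to 1.18), past no difference. For no alopecia over WT, thinning to 1000 UMIs moved the ratio to 0.60 (-0.18 to 1.36), an interval that held no difference. Il2ra in Cd3-free members was -1.21 for alopecia over no alopecia, -3.48 for alopecia over WT and -2.27 for no alopecia over WT, on 4, 3 and 22 UMIs. For alopecia over WT, Il2ra was -1.62 as a mean over cells and -1.03 without Ccr7-bearing members.

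The chemokine median for alopecia over WT was -0.86 with Cd207 of at least 1 UMI, -0.81 with no Epcam limit, -0.96 with at least 2 Epcam UMIs, -0.58 with no C1q limit, -1.30 in Cd3-free members, -0.80 with at most 2 keratin UMIs and -0.74 without Ccr7-bearing members. For no alopecia over WT it was -1.08 and -1.0 with Cd207 of at least 1 and 4, -0.57 with no Epcam limit, -0.66 with no C1q limit, -2.61 in Cd3-free members, -1.13 as a mean over cells and -0.58 without Ccr7-bearing members. The migration median for alopecia over WT was -0.84 with at least 4 Cd207 UMIs, -0.81 in Cd3-free members, -0.54 as a mean over cells and -0.40 without Ccr7-bearing members, and for no alopecia over WT -1.80, -0.44 and -0.036 under the last 3. The eicosanoid median for alopecia over no alopecia was 0.86 with no Epcam limit, 0.49 in Cd3-free members and 0.86 without Ccr7-bearing members.

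Without the top barcode of each gene, 196 genes were lower for alopecia over no alopecia and 100 higher for no alopecia over WT, and the second count was 115 with no C1q limit. Signs turned for Cd274 in Cd3-free members (alopecia over no alopecia, 0.38) and for the keratinocyte list there (alopecia over WT, -0.63). With at most 2 keratin UMIs they turned for Hist1h2ap (alopecia over no alopecia, 0.21), Krt5 (alopecia over WT, -0.025), Krt14 (no alopecia over WT, -1.22) and Defb6 (no alopecia over WT, 3.72). A sign change is counted here for values past 1.5-fold, a limit set after the values were seen in place of an interval that excludes 0. Smaller values turned as well where that interval excluded 0, in 16 list medians and 5 gene ratios. The Ccr7 ratio for alopecia over no alopecia, 0.35 in all members, was -0.16 with at least 4 Cd207 UMIs, -0.48 with no C1q limit and -1.28 without Ccr7-bearing members. For Krt5 and Krt14 the keratin limit removes keratin UMIs by its own construction. The cause of the other changes was not tested. Depth limits the Cd3-free results, which rest on 110 alopecia, 30 no-alopecia and 49 WT cells.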

Other observations

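Il22, the gene of a cytokine that acts on keratinocytes, had 0 CPM in alopecia, 0.991 CPM in no-alopecia and 136 CPM in WT members, and 1 WT cell gave 97% of its UMIs. Gzmc, a granzyme of activated lymphocytes, had 271 UMIs in Cd3-free alopecia members, of which 76% were in 1 cell. Both genes were singled out after their values were seen.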
